A study of Mus musculus with 21 samples.

Results

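The T cell and NK cell genes examined here are 41 genes of the mouse kidney data set, chosen by symbol, out of 21657 gene identifiers in all. They cover the CD3 chains (Cd3d, Cd3e, Cd3g and Cd247), the coreceptors (Cd4, Cd8a and Cd8b1), 9 genes of signaling behind the T cell receptor (Lck, Zap70, Skap1, Themis, Sh2d1a, Sh2d2a, Trat1, Ubash3a and Ptpn22), the surface receptors Cd2, Cd5 and Cd6, 4 costimulatory receptors (Cd27, Cd28, Icos and Cd226), 4 inhibitory receptors (Ctla4, Pdcd1, Lag3 and Cd96), 5 transcription factors (Foxp3, Gata3, Tbx21, Eomes and Tcf7), 5 genes of the cytotoxic granule (Gzma, Gzmb, Gzmk, Prf1 and Nkg7), 3 NK cell receptors (Klrd1, Klrk1 and Ncr1) and the cytokine gene Ifng. All 41 were found in the count tables.

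RNA-seq reads were counted per gene in flash-frozen kidney of 17 female mice, all apolipoprotein E knockouts (apoE KO, a hyperlipidemic strain) on the C57BL/6J background, which were 4 weeks old at the start and 18 weeks old after 14 weeks on their diets. The Con group (n = 5) received the control diet. The Ade group (n = 6) received a diet with adenine, which damages the renal tubules and is used as a model of chronic kidney disease, and the Ade + IMC group (n = 6) received adenine together with iodomethylcholine, or IMC, which blocks the making of trimethylamine by gut microbes. The comparisons ask how adenine feeding changed these genes and whether IMC changed them within adenine feeding. No wild-type mouse was among the groups, so every value below is from the apoE KO background, and Apoe itself had 47 to 110 reads in Con kidneys, 89 to 214 in Ade kidneys and 86 to 171 after Ade + IMC. Another group in the labels, 4 mice on the control diet with IMC, was not analysed here.

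A T cell recognizes peptides on MHC molecules through its T cell receptor, whose signal is passed on by the CD3 chains and by the kinases Lck and Zap70. CD4 binds MHC class II on helper and regulatory T cells, and CD8 binds MHC class I on cytotoxic T cells. NK cells kill without an antigen receptor and share the granule proteins (perforin and granzymes) with cytotoxic T cells. A healthy kidney holds few of these cells, and they collect in the interstitium of injured kidneys. In bulk tissue, more cells of a type and more RNA per cell cannot be told apart, and the genes do not each belong to 1 cell type.

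The 3 CD3 genes of chromosome 9 lie within 40056 bases (GRCm38), and the annotated starts of Cd3g (chr9:44969572-44980431, minus strand) and Cd3d (chr9:44981786-44987339, plus strand) are 1355 bases apart on opposite strands. Cd3e (chr9:44998740-45009627) is on the minus strand. Their promoters are shown because these 3 genes were higher together in the adenine-fed kidneys, and that of Gata3 (a member whose level did not follow the others) is set beside them. Each is 300 bases, from 250 before to 50 after the RefSeq start in GRCm38.p6, written 5′ to 3′ on the strand of the gene, at chr9:44980382-44980681 for Cd3g, chr9:44981536-44981835 for Cd3d, chr9:45009562-45009861 for Cd3e and chr2:9878551-9878850 for Gata3. Capitals mark matches on either strand to 3 motifs, CANNTG (the E-box), GGAAGT (a core bound by ETS factors) and CTTTGA (a core bound by TCF and LEF factors), and no matches overlapped in these windows.
Cd3g: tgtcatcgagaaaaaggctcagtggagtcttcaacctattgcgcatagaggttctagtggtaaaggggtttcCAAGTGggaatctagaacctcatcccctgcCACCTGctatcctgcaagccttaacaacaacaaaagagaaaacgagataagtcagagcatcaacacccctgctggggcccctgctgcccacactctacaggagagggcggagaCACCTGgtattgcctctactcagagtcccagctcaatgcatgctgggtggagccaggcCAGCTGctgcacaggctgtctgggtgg
Cd3d: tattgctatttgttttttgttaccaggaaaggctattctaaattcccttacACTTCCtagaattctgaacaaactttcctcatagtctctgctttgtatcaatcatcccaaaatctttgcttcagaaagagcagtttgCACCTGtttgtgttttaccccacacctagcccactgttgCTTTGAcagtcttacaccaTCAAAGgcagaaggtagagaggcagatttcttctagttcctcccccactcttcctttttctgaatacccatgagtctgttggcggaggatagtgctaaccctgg
Cd3e: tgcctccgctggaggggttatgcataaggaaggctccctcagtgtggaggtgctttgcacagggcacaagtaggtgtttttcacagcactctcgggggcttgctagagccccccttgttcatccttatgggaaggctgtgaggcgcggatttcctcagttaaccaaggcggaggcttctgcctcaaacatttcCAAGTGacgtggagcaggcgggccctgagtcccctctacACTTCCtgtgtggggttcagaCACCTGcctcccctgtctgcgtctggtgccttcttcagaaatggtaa
Gata3: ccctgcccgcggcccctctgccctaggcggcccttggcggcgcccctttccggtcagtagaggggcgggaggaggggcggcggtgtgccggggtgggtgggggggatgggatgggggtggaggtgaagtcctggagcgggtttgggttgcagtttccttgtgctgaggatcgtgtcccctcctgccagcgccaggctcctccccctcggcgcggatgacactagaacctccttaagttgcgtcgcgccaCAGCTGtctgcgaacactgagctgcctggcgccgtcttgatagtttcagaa

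The Cd3g window held 4 E-boxes, the Cd3d window 1 E-box, 1 ETS core and 2 TCF cores, the Cd3e window 2 E-boxes and 1 ETS core, and the Gata3 window 1 E-box. Promoter entries existed for 29 of the 41 genes. An E-box was in 86.5% of the members' 37 promoters and in 72.3% of all 32851 promoters, the ETS core in 32.4% and 23.8%, and the TCF core in 21.6% and 16%. These are matches of letters and were not examined as binding sites.

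Levels are given as CPM, the usual scaling of the reads of a gene to the size of its library, here with TMM-adjusted library sizes. The total count per mouse was 7716126 to 11680809 in the Con group, 5444833 to 7673215 in the Ade group and 5728589 to 8305968 in the Ade + IMC group, and 3 reads, taken as the floor of counting, were 0.257 to 0.551 CPM of the total. The depth limits the control values most, since 33 of the 41 genes had a median of 10 reads or fewer in the Con mice. The floor and the counting intervals below cover counting error only. A gene described as at least some fold higher was set against this floor, and the counting error of its own reads was left out. The labels number the mice, and the first digit of the number (2, 3 or 4) is not explained in them. The Con, Ade and Ade + IMC groups held 2, 2 and 1, then 2, 1 and 3, and then 2, 2 and 2 mice of these digits.

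Mouse 311 of the Ade + IMC group and, to a lesser degree, mouse 308 of the Ade group stood apart in these genes. Of the 12 adenine-fed mice, mouse 311 had the highest level in 37 of the 41 genes, and the exceptions were Gata3 (highest in mouse 410), Gzma (407), Klrd1 (409) and Klrk1 (308). Mouse 308 was the highest of the Ade group in 35 genes. The levels summed over the 40 genes other than Gata3 ran from 31.0 to 41.6 CPM under Con (median 34.6), from 195 to 600 CPM under Ade (median 270) and from 186 to 939 CPM under Ade + IMC (median 243), and the highest values of the adenine-fed groups were those of mouse 308 and mouse 311. Several results that rest on these mice are therefore also given without them.

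**Figure D1:**
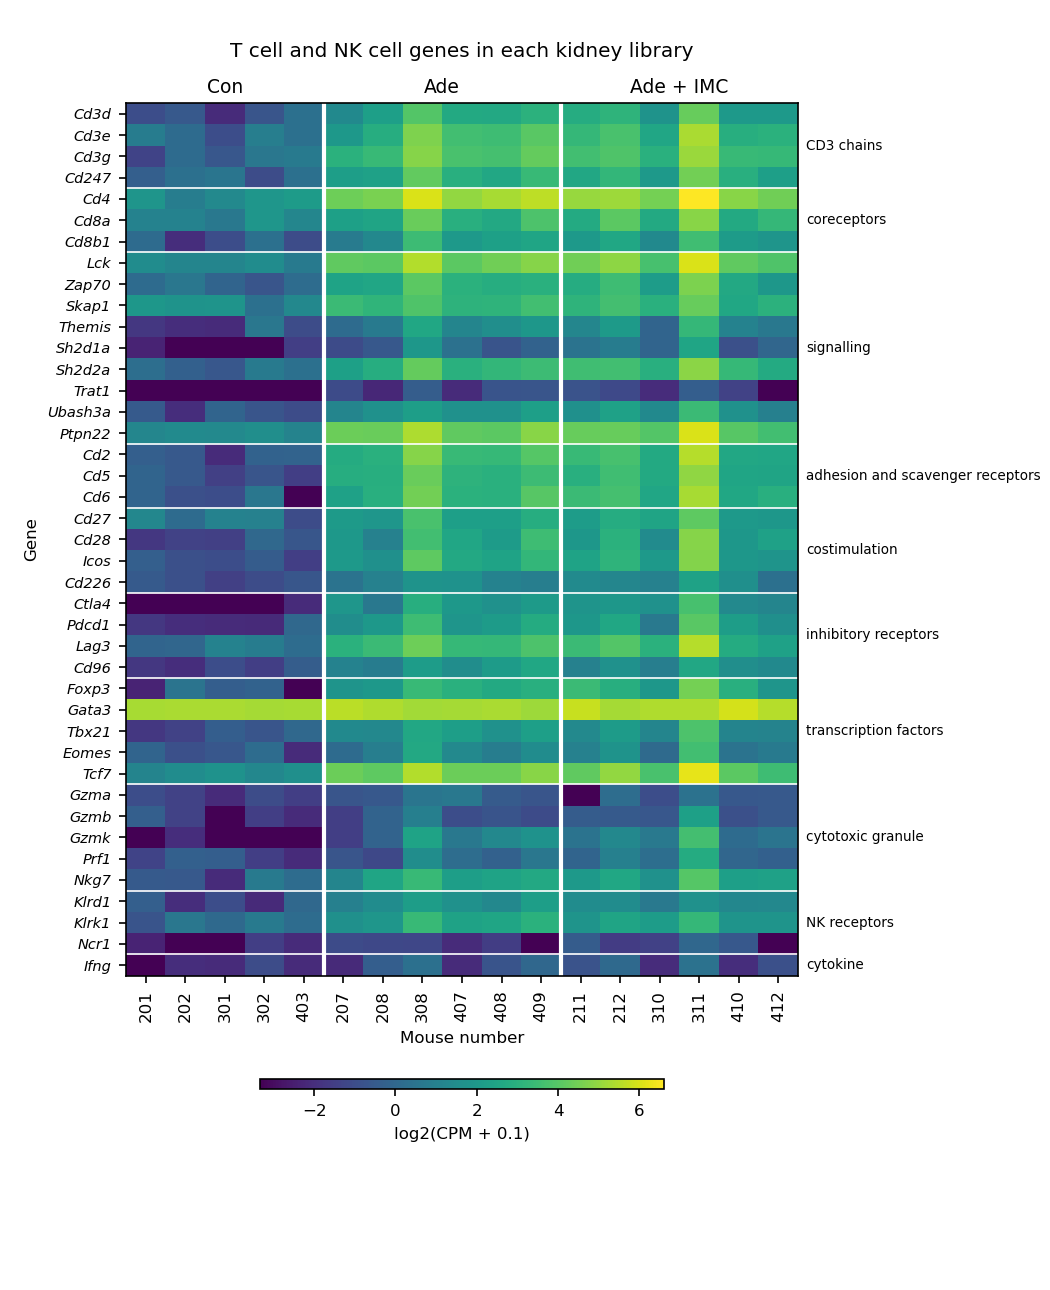
Level of each of the 41 genes (rows, grouped by role) in each of the 17 kidneys (columns, by mouse number within diet group), as log2(CPM + 0.1), with yellow for high and dark blue for low levels. The Con columns are dark for nearly all genes, the columns of mice 308 and 311 are the brightest, and the Gata3 row has a like color in every column.

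Most of the genes had few reads in the control kidneys. Beside Gata3, the genes with a Con median above 10 reads were Cd4 (28 reads), Skap1 (23), Tcf7 (21), Ptpn22 (18), Cd8a (17), Lck (16) and Cd27 (15). Cd3e, the epsilon chain of CD3, had 1.72, 1.01, 0.406, 1.82 and 1.18 CPM in the 5 Con mice (201, 202, 301, 302 and 403). Gata3, a transcription factor of type 2 helper T cells that the collecting duct and distal tubule also express, had 39.3, 40.1, 40.1, 38.3 and 39.7 CPM in the same mice. A single gene thus reached about the summed level of the other 40. Per kilobase of exon, the median level of Gata3 in the Con group was 9.99 CPM per kb, that of Tcf7 1.05, that of Cd4 0.876 and that of Cd3e 0.288, and in the Ade group Gata3 had 9.84, Cd4 8.74, Tcf7 7.89 and Cd3e 2.85 CPM per kb. The level of Gata3 does not follow the CD3 chains in these kidneys, so it is described as a member of the list and not read as a T cell marker.

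Between the Ade and Con groups, 33 of the 41 genes passed edgeR's filter on low counts, 32 of them rose at an adjusted p below 0.1 and 0 fell. Of all 14612 genes tested, 35.1% were called higher and 32.2% lower by the same rule. The median log2 fold change of the 33 genes was 3.26, and that of all genes tested 0.02. A gene could pass the filter with reads in the Ade mice alone, so these counts describe the genes tested and not all members. Over all 41, every Ade mouse was above every Con mouse in 34 genes, a separation that 22.4% of all genes tested showed. The exceptions were Themis, Gata3, Eomes, Gzmb, Prf1, Ncr1 and Ifng. The 34 include Sh2d1a, Trat1, Gzma and Gzmk, which did not pass the filter, while the 22.4% covers only genes that did.

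The 4 CD3 chains all rose. Cd3e had 3.81 to 25.4 CPM in the Ade mice (median 11.6), with every Ade mouse above the highest Con value of 1.82, and its log2 fold change was 3.35 ± 0.48 (SE, n = 5 and 6, edgeR adjusted p = 5.39e-05). Cd3g, the gamma chain, had 0.303, 1.01, 0.542, 1.43 and 1.57 CPM in the Con mice and 8.01 to 27.4 CPM (median 13.1) in the Ade mice, again with no overlap. Its rise was 15.9-fold (log2 3.99 ± 0.42, edgeR adjusted p = 3.57e-06). Cd3d, the delta chain, had 0.404, 0.578, 0.135, 0.519 and 1.18 CPM in the Con mice and 2.54 to 15.2 CPM in the Ade mice, a 12.7-fold rise. Cd247, the zeta chain, which carries most of the receptor's signaling motifs and is also found in NK cells, rose 9.10-fold. The exons of Cd247 share 60.3% of their bases with other annotated genes (Gm16565 on the same strand and Pou2f1 on the opposite one), so its reads may not all be its own.

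Among the coreceptors, Cd4 rose more than Cd8a. Cd4 had 3.53, 1.73, 2.44, 3.64 and 4.31 CPM in the Con mice and 21.4 to 66.0 CPM (median 35.2) in the Ade mice, and its log2 fold change was 3.62 ± 0.33 (12.3-fold, edgeR adjusted p = 1.12e-06). CD4 is also made by some macrophages and dendritic cells. Cd8a, the alpha chain of CD8, had 2.02, 2.02, 1.49, 3.64 and 2.22 CPM in the Con mice and 4.83 to 20.2 CPM (median 6.91) in the Ade mice, with a log2 fold change of 2.09 ± 0.41 (4.27-fold, edgeR adjusted p = 0.000582). The groups did not overlap for either gene. Cd8b1, the beta chain that marks conventional cytotoxic T cells, had 0.144 to 1.17 CPM in the Con mice and 1.65 to 11.2 CPM in the Ade mice, a 7.49-fold rise. Cd4 and Lag3 lie close together on chromosome 6 (chr6:124864692-124888221 and chr6:124904361-124911705), and Cd8b1 (chr6:71322788-71337494) and Cd8a (chr6:71373427-71379173) lie on the same chromosome.

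Because the 2 coreceptors were measured in the same libraries, their balance was also taken within each mouse, as the Cd8a reads in percent of the Cd4 and Cd8a reads. The share was 36.4, 53.9, 37.9, 50 and 34% in the Con mice and 18.5, 18.5, 23.5, 19.4, 13.8 and 22.1% in the Ade mice (207, 208, 308, 407, 408 and 409). Every Ade mouse was below every Con mouse, and the means were 42.4 ± 8.89% (SD, n = 5) and 19.3 ± 3.38% (SD, n = 6). The difference of -23.1 percentage points had a two-sided exact permutation p of 0.00217, the smallest that the 462 splits of 5 and 6 mice can give (0.013 after adjustment over 6 tests of ratios), and 0.0139 when mice were permuted only within digits, again the smallest possible. This ratio was chosen after the values had been seen, and it weighs reads and not cells. The same share was not taken for Cd8b1, which rose 7.49-fold where Cd8a rose 4.27-fold. Cd4 reads may also come from macrophages and dendritic cells.

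**Figure D2:**
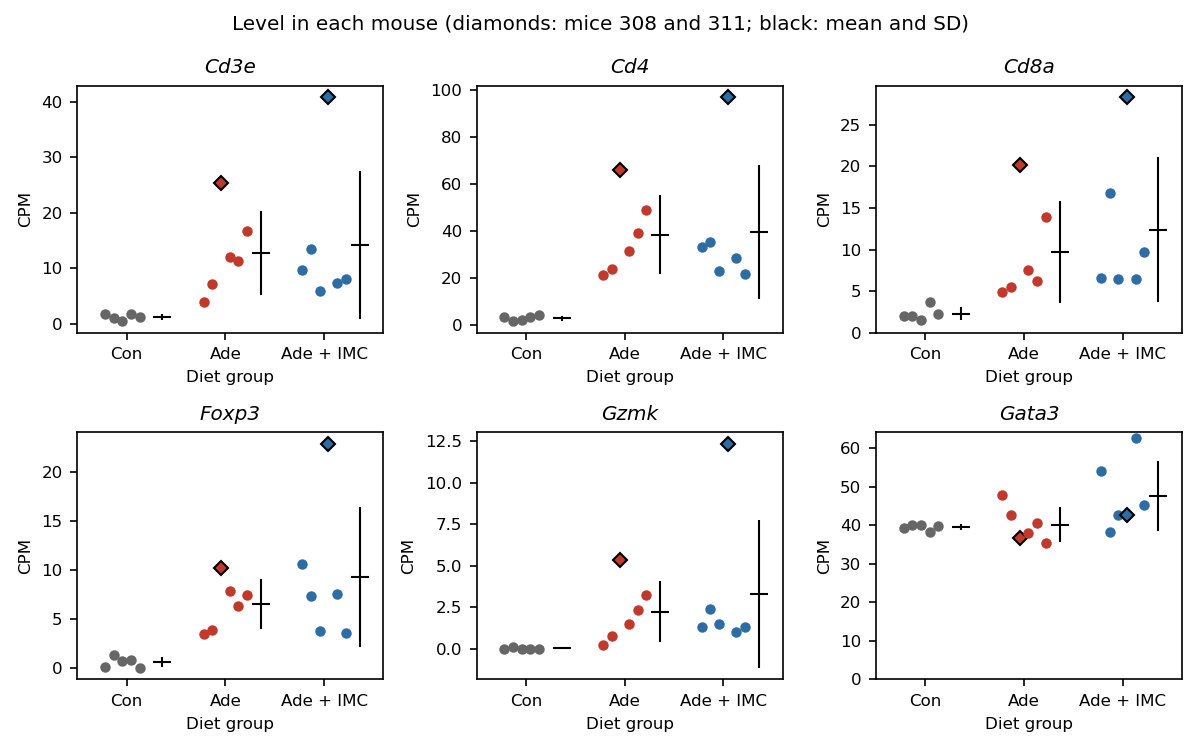
CPM of Cd3e, Cd4, Cd8a, Foxp3, Gzmk and Gata3 in each mouse (points) of the Con (gray), Ade (red) and Ade + IMC (blue) groups, each with its own vertical axis from 0, with the mean and SD in black and diamonds for mice 308 and 311. The 5 Con points of the first 5 genes lie below the adenine-fed points, mouse 311 lies above all others in these 5 panels (40.8 CPM for Cd3e, 96.8 CPM for Cd4), and Gata3 has a like level in all groups.

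Of the 9 signaling genes, 7 passed the filter and all 7 rose. Ptpn22, a phosphatase that restrains T cell receptor signaling, had the smallest adjusted p of all the members (2.85e-07, edgeR), with 2.09 to 2.86 CPM in the Con mice and 17.2 to 41.6 CPM in the Ade mice and a log2 fold change of 3.33 ± 0.26. Lck, the kinase that starts the signal, had 2.73, 2.17, 2.17, 2.73 and 1.57 CPM in the Con mice and 17.04 to 43.6 CPM in the Ade mice, a 10.7-fold rise. Zap70, the kinase that Lck activates, rose 8.80-fold. The adaptor Sh2d2a rose 9.60-fold, and Ubash3a, which damps the receptor's signal, rose 6.86-fold. Skap1, an adaptor that links the receptor to integrins, rose least of the 7, by 3.80-fold. Themis, which T cells need for their selection in the thymus, had a log2 fold change of 2.61 ± 0.60 (edgeR adjusted p = 0.00187), but Con mouse 302 with 1.43 CPM lay above the lowest Ade mouse with 1.02 CPM, and without that Con mouse the log2 fold change was 3.61. Sh2d1a, the adaptor SAP of the SLAM receptors, had 3 reads in the 5 Con mice together and 49 in the 6 Ade mice, a ratio of the depth-adjusted levels of 14.1 (95% exact counting interval 4.55 to 70.8, exact permutation p = 0.0108 over CPM). Mouse 308 held 22 of the 49 reads and Con mouse 403 held 2 of the 3, and the ratio was 8.94 (2.75 to 46.1) without mouse 308 and 34.1 (5.85 to 1376) without mouse 403. Its exons share 26.6% of their bases with Tenm1 on the opposite strand. Trat1, an adaptor at the T cell receptor, had 0 reads in every Con mouse and 17 in the Ade mice. It was 4.90-fold higher against a floor of 3 reads over the Con group (exact permutation p = 0.00649 over CPM), and 3.67-fold without Con mouse 201. These values leave out the counting error of the Ade reads.

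The surface receptors Cd2, Cd5 and Cd6 all rose, with the largest median log2 fold change of any role (4.33). Cd2, an adhesion receptor of T and NK cells, had 0.707, 0.578, 0.135, 0.779 and 0.784 CPM in the Con mice and 6.74 to 27.9 CPM (median 10) in the Ade mice, a 21.2-fold rise (log2 4.41 ± 0.48, edgeR adjusted p = 4.73e-06). Cd5 and Cd6 are related scavenger-type receptors that temper T cell receptor signals, close together on chromosome 19 (chr19:10717116-10739002 and chr19:10789341-10830058). Their log2 fold changes were 4.33 ± 0.40 and 4.12 ± 0.56. A subset of B cells also carries CD5.

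All 4 costimulatory receptors rose. Cd28, the main costimulatory receptor of naive T cells, rose 14.5-fold, and Icos, which helper T cells gain upon activation, rose 14.7-fold. Cd28, Ctla4 and Icos form a cluster of 283521 bases on chromosome 1 (chr1:60716800-61000320). Cd27, a receptor of the TNF family on T, B and NK cells, rose 4.00-fold, and Con values of 2.32, 1.01, 2.03, 1.95 and 0.392 CPM lay below the lowest Ade value of 3.64 CPM. Cd226, an activating receptor of NK and T cells that binds nectin family ligands, rose 4.89-fold.

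Inhibitory receptors rose in all 4 cases. Ctla4, which competes with CD28 for its ligands and is abundant on regulatory T cells, had 1 read in the 5 Con mice together and 170 in the 6 Ade mice (28, 13, 44, 28, 25 and 32), a ratio of 146.8 with a 95% exact counting interval of 26 to 5834. Its fitted log2 fold change of 6.56 rests on that single read, and without the mouse (403) that held it the ratio was at least 39.5 against the floor of 3 reads over the Con group. Pdcd1, which encodes PD-1, had 0.202, 0.144, 0.135, 0.13 and 0.915 CPM in the Con mice and 2.80 to 11.4 CPM in the Ade mice, a 17.1-fold rise (log2 4.10, and 4.99 without Con mouse 403). Lag3, a receptor for MHC class II, rose 9.67-fold and Cd96, which shares its ligand with CD226, rose 10.3-fold.

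Of the 5 transcription factors, 4 rose and Gata3 did not pass the test. Foxp3, the defining factor of regulatory T cells, had 0.101, 1.30, 0.677, 0.779 and 0 CPM in the Con mice and 3.43 to 10.2 CPM (median 6.92) in the Ade mice, with no overlap and a log2 fold change of 3.57 ± 0.52 (edgeR adjusted p = 5.97e-05). Its exons share 31.5% of their bases with other annotated genes, of which Flicr lies on the same strand and Ccdc22, Gm36995 and Ppp1r3f on the opposite one. Tcf7, which naive and memory T cells use, rose 9.57-fold, with Con values of 2.12 to 3.25 CPM and Ade values of 17.6 to 44.3 CPM. Tbx21 (T-bet), the factor of type 1 helper T cells and NK cells, rose 7.50-fold. Eomes, its relative in cytotoxic and NK cells, had a log2 fold change of 2.10 ± 0.51 (edgeR adjusted p = 0.00277), although the lowest Ade mouse (1.02 CPM) was not above the highest Con mouse (1.04 CPM). Gata3 had 35.4 to 47.8 CPM in the Ade mice (median 39.1) and a log2 fold change of 0.05 ± 0.08 (edgeR adjusted p = 0.637), which was -0.003 without mouse 207.

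Granule genes differed in whether the Ade and Con groups separated. Nkg7, a membrane protein of cytotoxic granules, had 0.606, 0.578, 0.135, 1.56 and 1.04 CPM in the Con mice and 2.16 to 10.2 CPM in the Ade mice and was the only one of the 5 to pass the filter (7.18-fold, edgeR adjusted p = 0.000116). Gzmk, granzyme K, had 0, 1, 0, 0 and 0 reads in the Con mice and 2, 7, 32, 11, 19 and 25 reads in the Ade mice, a ratio of 82.9 (95% exact counting interval 14.5 to 3309, two-sided exact permutation p = 0.0173 over CPM), or at least 22.8 against the floor without Con mouse 202, which held the single read. Gzma, granzyme A, lies near Gzmk on chromosome 13 (chr13:113093825-113100981 and chr13:113171608-113225908) and had 4, 2, 1, 3 and 2 reads in the Con mice and 4, 5, 8, 11, 5 and 4 in the Ade mice (exact permutation p = 0.00866 over CPM). Gzmb, granzyme B, had 7, 2, 0, 2 and 1 reads in the Con mice and 2, 7, 11, 3, 4 and 3 in the Ade mice, and the groups overlapped (exact permutation p = 0.158, or 0.0833 within digits). Prf1, perforin, had 3, 5, 5, 2 and 1 reads in the Con mice and 4, 3, 17, 8, 6 and 11 in the Ade mice (exact permutation p = 0.0844, or 0.0556 within digits). At this depth, neither gene separated the Ade and Con groups by this test, while DESeq2 and edgeR with no filter called Prf1 higher and did not call Gzmb.

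Of the NK cell receptors, Klrd1 and Ncr1 were near the floor in the control kidneys, as was Ifng, while Klrk1 had 5 to 12 reads per Con mouse. Klrd1 (CD94), which pairs with NKG2 chains on NK cells and some CD8 T cells, had 0.707, 0.144, 0.406, 0.13 and 0.915 CPM in the Con mice and 1.91 to 4.64 CPM in the Ade mice, a 6.62-fold rise (edgeR adjusted p = 7.93e-05). Klrk1 (NKG2D), an activating receptor of the same cells, rose 5.48-fold, and the 2 genes lie close together on chromosome 6 (chr6:129591782-129598775 and chr6:129610323-129623864). Ncr1 (NKp46), the receptor most particular to NK cells and related innate lymphoid cells among the members, had 1, 0, 0, 2 and 1 reads in the Con mice and 3, 3, 2, 1, 2 and 0 in the Ade mice (exact permutation p = 0.115 over CPM). Ifng, interferon gamma, had 0, 1, 1, 3 and 1 reads in the Con mice and 1, 6, 7, 1, 4 and 7 in the Ade mice (exact permutation p = 0.0606). The exons of Ifng share 25.9% of their bases with Gm49751 on the same strand. Neither Ncr1 nor Ifng reached 0.05, and both groups were within a few reads of 0 in either gene.

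When the whole table was tested with no filter on low counts, or by DESeq2, 38 of the 41 genes were called higher in the Ade mice, and the 3 not called were Gata3, Gzmb and Ncr1 in both fits. Of all genes tested, 29.2% were called higher with no filter and 27.1% by DESeq2. Sh2d1a, Trat1, Gzma, Gzmk, Prf1 and Ifng were called in both. With the mouse digit as a block, 32 of the 33 genes tested by edgeR were called higher, where 34.9% of all genes were called higher and 31.8% lower, and with upper-quartile scaling it was again 32 of 33, where 38.4% of all genes were called higher.

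The Ade + IMC and Con groups were compared with the same Con mice as the first comparison, so their results are not independent and are set side by side. Of the 41 genes, 34 passed the filter and all 34 were called higher, with 0 lower, where 30.9% of all 14578 genes tested were called higher and 32.3% lower. With the mouse digit as a block it was 33 of 34, where 30.7% of all genes were called higher and 32.4% lower, and with upper-quartile scaling 34 of 34, where it was 35.5% higher. The median log2 fold change of the 34 genes was 3.34, and 2.80 over the 30 genes tested without mouse 311. Every Ade + IMC mouse was above every Con mouse in 33 of the 41 genes, against 20.5% of all genes tested, and the exceptions were Themis, Trat1, Gata3, Eomes, Gzma, Gzmb, Ncr1 and Ifng. The 33 include Sh2d1a and Prf1, which did not pass the filter, while the 20.5% covers only genes that did.

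Cd3e rose by 3.49 ± 0.59 on the log2 scale in the Ade + IMC mice (2.79 without mouse 311), Cd4 by 3.64 ± 0.44, Cd8a by 2.43 ± 0.45 and Foxp3 by 4.05 ± 0.69, all at edgeR adjusted p-values of 0.000497 or less. Beside these, the Ade values were 3.35, 3.62, 2.09 and 3.57. Cd2 rose by 4.54 (3.72 without mouse 311), Cd5 by 4.45 (3.81), Cd6 by 4.41 (3.70), Cd28 by 4.24 (3.35) and Icos by 4.07 (3.27). Mouse 311 also moved the log2 fold changes of Lag3 from 3.55 to 2.81, Pdcd1 from 4.21 to 3.52, Tbx21 from 3.12 to 2.32, Tcf7 from 3.36 to 2.75, Ptpn22 from 3.32 to 2.73 and Ctla4 from 6.82 to 6.14 when it was left out, and every one of these was still called. Leaving out a Con mouse moved Themis from 2.86 to 3.86 (mouse 302) and Pdcd1 to 5.09 (mouse 403). Without mouse 403 the Con group had 0 Ctla4 reads, and the level in the Ade + IMC mice was at least 53.2-fold higher against the floor of 3 reads. The NK receptors Klrd1 and Klrk1 rose by 2.32 ± 0.39 and 2.18 ± 0.37. The other CD3 chains Cd3d, Cd3g and Cd247 rose by 3.75, 3.93 and 3.23, and Cd8b1 by 2.99. Among the signaling genes, Lck rose by 3.56, Zap70 by 3.30, Skap1 by 1.88, Sh2d2a by 3.60 and Ubash3a by 3.10. Cd27 rose by 2.14, Cd226 by 2.52, Cd96 by 3.15 and Eomes by 2.54 on the same scale, and Nkg7 rose 7.97-fold. Gata3 had a log2 fold change of 0.24 ± 0.11 at an edgeR adjusted p of 0.0883, just inside the threshold, and this call was lost in 9 of the alternatives.

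Gzmk passed the filter here, with 8, 20, 11, 109, 7 and 9 reads in the Ade + IMC mice (211, 212, 310, 311, 410 and 412) against 1 read in the Con group, a ratio of 146.1 (95% exact counting interval 25.9 to 5804). Mouse 311 held 109 of these 164 reads, and without it the ratio was 61.1 (10.5 to 2457), while without Con mouse 202 it was at least 40.2 against the floor. Prf1 had 5, 16, 8, 59, 6 and 5 reads (exact permutation p = 0.0476 against the Con group over CPM, or 0.00926 within digits). Gzmb had 4, 5, 4, 43, 3 and 4 reads, with p = 0.113 by the same exact test and 0.0463 within digits. Trat1 had 15 reads in the Ade + IMC mice and was 4.45-fold higher than the floor of 3 reads over the Con group. Mouse 311 held 6 of these 15 reads, and without it the value was 3.33-fold. Sh2d1a had 87 reads against 3 (ratio 25.8, 95% exact counting interval 8.55 to 127.7). Of the 87 Sh2d1a reads, 50 were of mouse 311, and the ratio was 13.7 (4.34 to 69.5) without it and 62.5 (10.9 to 2497) without Con mouse 403. For Gzma (exact permutation p = 0.141), Ncr1 (p = 0.0693) and Ifng (p = 0.0606), the Ade + IMC and Con groups did not separate by the same exact test. When the whole table was tested, DESeq2 called 40 of the 41 genes higher in the Ade + IMC mice, where 25.7% of all genes were called higher, and edgeR with no filter called 39, where it was 25.9% of all genes. Gzmb (adjusted p = 0.0303 by DESeq2 and 0.0551 by edgeR), Prf1 (0.00435 and 0.0163), Ncr1 (0.0862 and 0.0645) and Ifng (0.079 and 0.0587) were called in both, Gzma (0.191 and 0.155) in neither and Gata3 by DESeq2 alone.

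**Figure D3:**
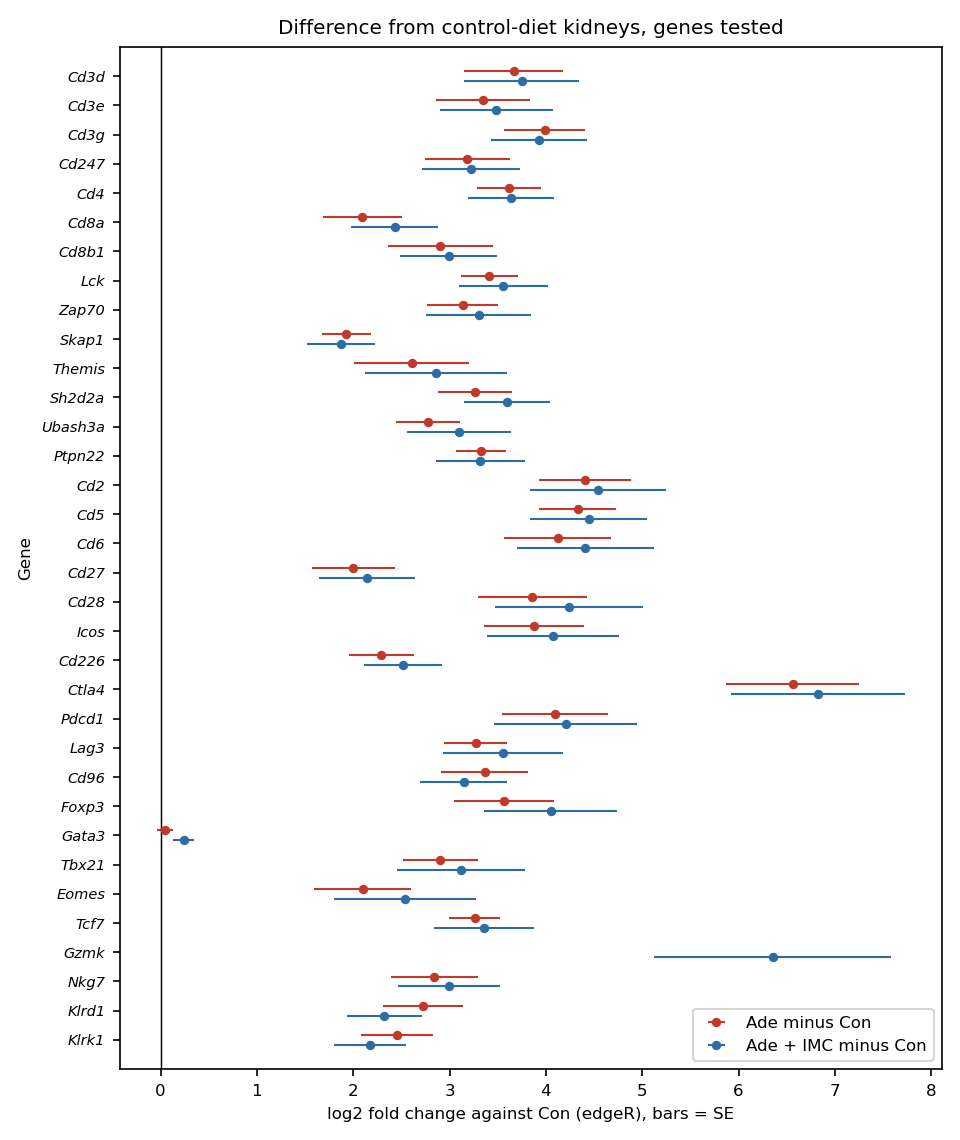
Log2 fold change against the Con group (horizontal axis, edgeR, bars show the SE) of each gene tested, for the Ade group (red) and the Ade + IMC group (blue). The points of Gata3 (0.05 and 0.24) lie near 0 and those of all the other genes at or right of Skap1 (1.93 and 1.88), and both colors share the same 5 Con mice. Gzmk passed the filter in the Ade + IMC comparison alone.

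Within adenine feeding, 0 of the 36 members tested were called for IMC at an adjusted p below 0.1 (limma with a trend on log2 of the normalized count + 1, n = 6 and 6), and 0% of all 14696 genes tested were called higher or lower. At an unadjusted p below 0.05 it was also 0 members, where 3.37% of all genes were higher and 3.35% lower. edgeR on the recovered reads called 0 genes in all, and DESeq2 called 0 members and 0.174% of all genes. Of the 36 members, 18 were above and 18 below 0, and their median difference was 0.00 on the log2 scale. The SEs of the members ran from 0.12 to 0.68 with a median of 0.42 on the log2 scale.

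Cd3e had 3.81 to 25.4 CPM in the Ade mice (median 11.6) and 5.81 to 40.8 CPM in the Ade + IMC mice (median 8.87), and its log2 difference was 0.02 ± 0.49. Cd4 had medians of 35.2 and 31.0 CPM and a difference of -0.06 ± 0.36, Cd8a medians of 6.91 and 8.14 CPM and a difference of 0.29 ± 0.43, and Foxp3 medians of 6.92 and 7.44 CPM and a difference of 0.29 ± 0.42. The groups overlapped for all 4 genes, and mouse 311 was above every Ade mouse in each of them. For Foxp3, the Ade mice had 3.43 to 10.2 CPM and the Ade + IMC mice 3.52 to 22.9 CPM. The member with the smallest unadjusted p was Gata3, with 35.4 to 47.8 CPM (median 39.1) against 38.3 to 62.7 CPM (median 44.0) and a difference of 0.22 ± 0.12 (limma adjusted p = 0.749). Klrd1 had the lowest difference, with 1.91 to 4.64 CPM (median 2.92) in the Ade mice and 1.52 to 3.17 CPM (median 2.54) in the Ade + IMC mice, at -0.34 ± 0.25 (limma adjusted p = 0.814). The others named by the smallest p were Prf1 (0.53), Sh2d1a (0.48), Sh2d2a (0.29) and Klrk1 (-0.26), and none of them was called. Gzmb did not pass the filter, and the exact permutation p over its CPM was 0.558. In 0 of the 41 members was every Ade mouse above every Ade + IMC mouse, as in 0.0953% of all genes tested.

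The sign of these differences depended on single mice. Without mouse 311, 34 members passed the filter, 31 of them were lower in the Ade + IMC mice and 3 higher (Cd8a at 0.01, Sh2d2a at 0.02 and Gata3 at 0.24), with a median of -0.35 and a range from -0.57 (Cd2) to 0.24. Still 0 members were called at an adjusted p below 0.1, and 0 of all 14659 genes tested were called higher or lower. At an unadjusted p below 0.05, 1 member passed (Ptpn22, -0.51, limma adjusted p = 0.449), where 5.25% of all genes were lower and 5.57% higher. Without mouse 308 of the Ade group, 30 of 35 members were higher in the Ade + IMC mice, with a median of 0.22. Under edgeR, which fits mean counts in place of mean logs, 29 of 34 members were above 0, and with the digit as a block in edgeR 13 were above and 21 below 0, with a median of -0.07. The members are not independent of each other, since they come from the same libraries, so these counts of signs are a description and not a test.

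The first digit of the mouse number split the members further. Among the mice of digit 2 (2 per group), 35 of the 36 members were higher in the Ade + IMC mice, with a median difference of 0.59. For digit 3 (2 Ade + IMC mice and 1 Ade mouse, 308), 34 were lower with a median of -0.53, and for digit 4 (2 and 3 mice) 35 were lower with a median of -0.59. With the digit as a replicate block in the limma fit, 0 members were called, 27 of 36 were below 0 and the median was -0.16, where 0.497% of all genes were called higher and 0.408% lower. At an unadjusted p below 0.05 in this fit it was also 0 members, against 7.40% of all genes higher and 6.26% lower. Each digit holds 1 to 3 mice per group, and the sign within digit 3 rests on a single Ade mouse.

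**Figure D4:**
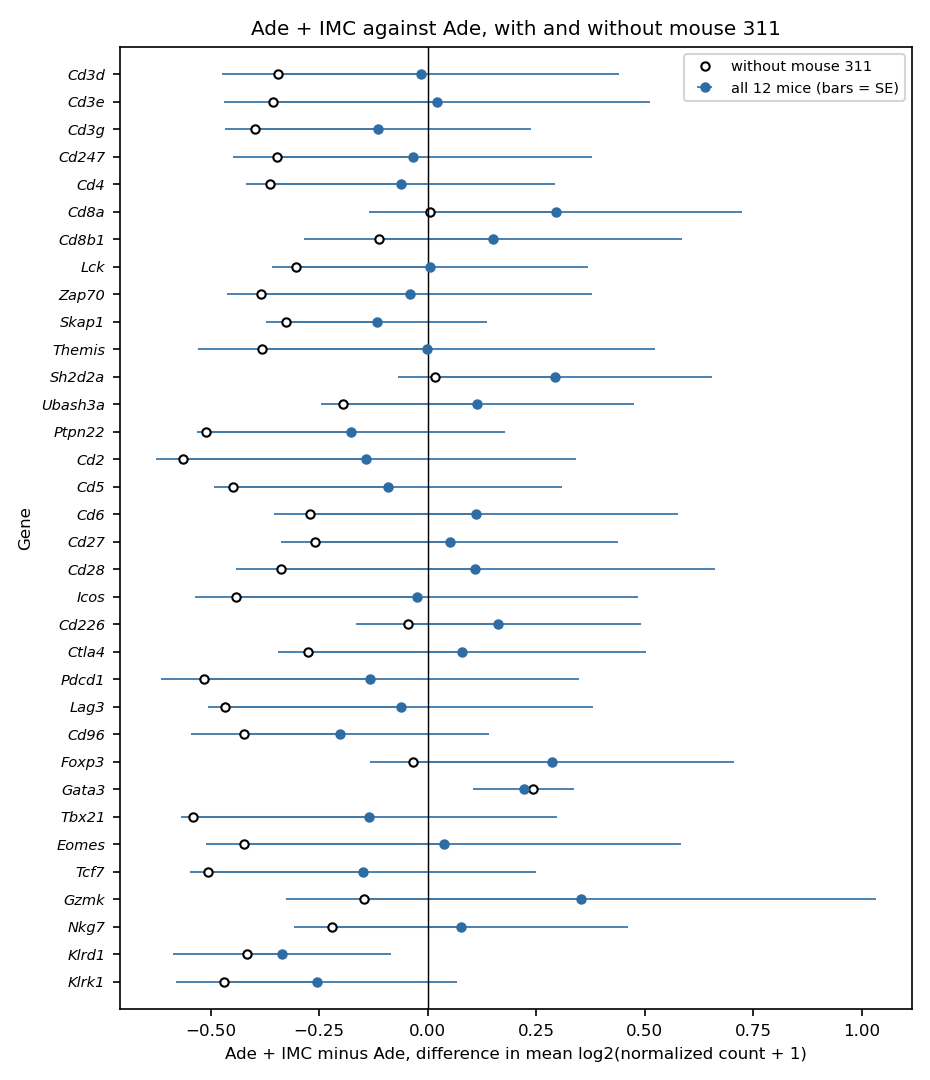
Difference in mean log2(normalized count + 1) between the Ade + IMC and Ade groups for the 34 members tested both ways, with all 12 mice (blue, bars show the SE) and without mouse 311 (open circles). With all mice the points lie on either side of 0, and without mouse 311 all but Cd8a, Sh2d2a and Gata3 lie below it.

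Mouse 311 differed from its group by different amounts in different genes. Its level over the median of the other 5 Ade + IMC mice was 9.37-fold for Gzmk, 8.32-fold for Gzmb, 7.43-fold for Cd28, 7.10-fold for Cd2, 5.06-fold for Cd3e, 3.37-fold for Cd4 and 0.947-fold for Gata3. Markers of some other cells were also high in the same kidney. The 8 markers of B cells and plasma cells summed to 2722 CPM in mouse 311 and to at most 445.2 CPM in the other Ade + IMC mice and the 3 genes measured of lymph node stroma to 50.2 and at most 10.52 CPM. The 7 macrophage markers did not stand apart, with 1933 CPM in mouse 311 and at most 1823 CPM in the others, and the 2 neutrophil markers measured were at 2.61 CPM there and at up to 21.6 CPM in the others. Its 8 kidney epithelial markers summed to 7874 CPM, the lowest of its group. In mouse 308 the B cell and plasma cell markers summed to 959 CPM (at most 651.8 CPM in the other Ade mice), the stromal genes to 27.9 CPM (at most 16.1) and the kidney markers to 5228 CPM, the lowest of the Ade group. The part of these cells or of the dissection in the levels of the T cell and NK cell genes was not tested.

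Other leukocyte genes moved with the members in the comparison of the Ade and Con groups. The 3 pan-leukocyte markers (Ptprc, Coro1a and Laptm5) had summed levels of 60.8 to 67.9 CPM (Con), 334 to 699 CPM (Ade) and 251 to 1003 CPM (Ade + IMC), and all 3 were called higher in the Ade mice. So were 7 of 7 macrophage markers, 7 of 8 B cell and plasma cell markers and 4 of 4 dendritic cell markers, while 5 of 8 kidney markers and 3 of 3 red cell markers were called lower. Of all genes tested, 35.1% were called higher and 32.2% lower in this comparison. Of the marker genes tested, 0 were called for IMC within adenine feeding. To set the T cell signal beside all leukocytes, the Cd3e reads were taken per 100 reads of Ptprc (CD45). The ratio was 4.89 ± 1.86 in the Con mice (SD, range 1.88 to 6.28) and 8.91 ± 2.74 in the Ade mice (4.11 to 11.3), groups that overlapped, and the exact permutation p was 0.0303, or 0.0909 after adjustment over the 6 ratio tests and 0.0694 within digits. It was 9.62 ± 1.90 in the Ade + IMC mice (exact permutation p = 0.626 against the Ade group). Klrd1 reads per 100 Cd3e reads were 48.1 ± 40.1 in the Con mice, 30.1 ± 11.97 in the Ade mice and 23.9 ± 8.71 in the Ade + IMC mice, with exact permutation p-values of 0.338 and 0.357 for the 2 steps. The Cd8a share was 16.6, 32.3, 21.9, 22.6, 18.3 and 30.8% in the Ade + IMC mice, with a mean of 23.8 ± 6.46% that did not differ from the Ade group beyond the spread between mice (exact permutation p = 0.184, adjusted p = 0.368).

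**Figure D5:**
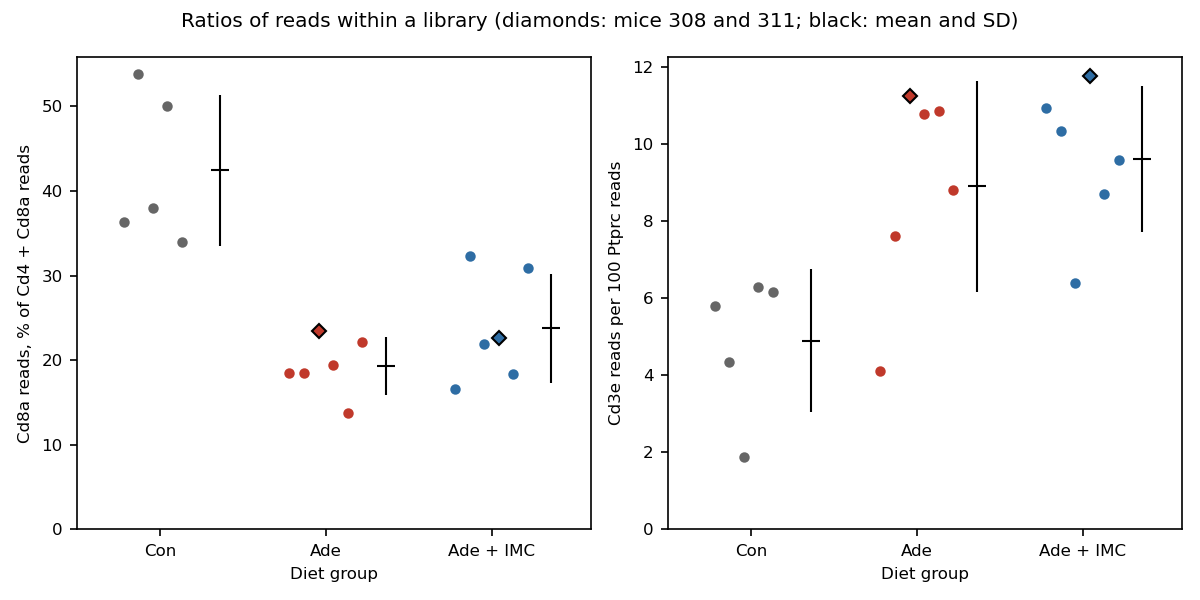
Cd8a reads in percent of the Cd4 and Cd8a reads (left) and Cd3e reads per 100 Ptprc reads (right) in each mouse (points) by diet group, with the mean and SD in black and diamonds for mice 308 and 311. The Cd8a share is 34% or more in the 5 Con mice and at most 23.5% in the 6 Ade mice, mouse 311 lies within its group in this share, and the groups overlap in the Cd3e ratio.

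Further genes of the same pathways were taken from lists of 132 genes, of which 130 were in the tables. Of the constant chains of the T cell receptor, the 3 that passed the filter rose in the Ade mice, Trac by 2.34, Trbc1 by 3.46 and Trbc2 by 3.61 on the log2 scale. They encode the constant parts of the alpha and beta chains. The gamma chain genes did not pass the filter. In T cell receptor signaling, 20 of 25 genes were called higher and 0 lower. These counts, and those of the lists that follow, stand beside the 35.1% of all genes called higher and the 32.2% called lower in the Ade mice. Among those called higher were the adaptors Lcp2 (3.04) and Lat (2.73) and the exchange factor Vav1 (3.21), and the 5 not called were Cbl, Itpkb, Pag1, Prkcq and Tec, with log2 fold changes from -0.23 to 0.17.

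Among ligands of the members' receptors, 11 of 13 tested were called higher and 2 lower in the Ade mice. Cd80 and Cd86, the ligands shared by CD28 and CTLA-4, rose by 3.10 and 2.57, and Cd274, a ligand of PD-1, by 0.97. Pdcd1lg2, the other ligand of PD-1, had 1 read in the 5 Con mice together and 60 in the Ade mice, a ratio of 51.8 (95% exact counting interval 8.95 to 2081), or at least 12.95 against the floor of 3 reads without Con mouse 201, which held the single read. Cd48, the ligand of CD2 in the mouse, rose by 3.17. The genes called lower were Nectin3 (-0.87), a nectin, and Fgl1 (-0.82), a ligand of LAG-3. Against the Con group in the Ade + IMC mice, 7 of 11 tested were higher and 2 lower, where 30.9% of all genes were called higher and 32.3% lower.

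Of 23 cytokine and homing receptors, 22 were called higher in the Ade mice, among them the interleukin 7 receptor Il7r (4.97), the adhesion receptor Cd44 (4.45), the lymph node homing receptor Ccr7 (3.63), Cxcr3 (2.89), which binds CXCL9 and CXCL10, and Il2ra (2.92), the high-affinity chain of the interleukin 2 receptor. Il12rb2 was not called (-0.43). Many of these genes are also expressed by myeloid cells. Of the further cytotoxic and NK cell genes, 18 of 32 passed the filter and 15 were called higher, including the chemokine Ccl5 (3.40), the SLAM receptors Slamf6 (4.50, and 3.84 without mouse 308) and Slamf7 (3.28) and the granule protease Ctsw (2.85). The list also holds Fcgr3, Fcer1g and Tyrobp, which macrophages express in quantity. The genes of this list that did not pass the filter included the NK receptors Klrb1c, Klre1, Klra8 and Klrc1.

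Of 18 further transcription factors, 14 were called higher and 2 lower in the Ade mice. Ikzf3 (3.77), a lymphocyte factor, Runx3 (2.95), a factor of cytotoxic cells, and Stat4 (3.34, and 4.11 without Con mouse 302), which acts behind the interleukin 12 receptor, rose, and so did Runx1 (3.77), which many cell types express. Id2, an inhibitor of E proteins, was among those called lower, with a log2 fold change of -0.70. All 10 targets of interferon gamma rose, among them the chemokines Cxcl9 (3.49) and Cxcl10 (2.65) and the MHC class II regulator Ciita (2.56), beside an Ifng transcript of at most 7 reads per Ade library. Other interferons also induce most of these genes. Within adenine feeding, limma called 0 genes of these lists for IMC.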

How the data were processed

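The submitters' processing notes name Trimmomatic 0.39, FastQC 0.11.8, Bowtie2 2.2.5, HTSeq 0.9.1 and DESeq2 without their roles, while the paper's methods name STAR and mm10. Annotation release and strand setting are not given in the sources used here. The authors deposited raw counts per gene for the Con and Ade mice (21004 genes), and, in a second table of Ade and Ade + IMC mice (21287 genes), a signal, the count divided by DESeq2's size factor. The authors' own comparison columns (mean, fold change, Wald statistic, p-values) were not used, and their table gave only symbols. Every normalized value above 0 (100%) came within 0.01 of a whole read, and 0 recovered reads differed from the raw counts of the Ade mice. Each column belongs to 1 mouse, and no pair of mice within a group agreed within sampling error (the smallest chi-square over its degrees of freedom was 3.965).

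The Ade and Con groups and the Ade + IMC and Con groups (recovered reads) were compared by the quasi-likelihood test of edgeR 4.0.16 with TMM and filterByExpr, and the Ade + IMC and Ade groups by limma-trend (version 3.58.1) on the log2 of the normalized count + 1, at a mean of at least 10, in R 4.3.3. This scale understates the change of low genes. The threshold was an adjusted p below 0.1 (Benjamini-Hochberg, over all genes tested), as in the paper's methods. SEs of edgeR are the log2 fold change over the square root of its F statistic. Genes that a fit did not test and the ratios were compared by two-sided exact permutation over mice. The fits were also run on simulated counts. Only genes with more reads than most members had in the Con mice were changed there, with the same spread for every gene. That run does not show how the fits treat genes with few reads. Alternatives changed the tool (DESeq2 1.42.0), scaling, filter, pseudocount, block and mice included. Positions are those of GRCm38, and promoters those of RefSeq for GRCm38.p6. Reads of 11 members could also belong to a gene whose exons overlap theirs.

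The members, the pathway and marker lists and the tests were chosen with earlier results of these data known. The text names all 41 members in the comparisons with the Con group, and for the Ade + IMC and Ade groups the 6 members with the smallest unadjusted p and Cd3e, Cd4, Cd8a, Foxp3, Gzmb and Klrd1. Other genes named for single mice, Ptpn22 and those of the pathway lists were picked once their values had been seen. The cell type marker lists not described in the report gave 2 of 2 neutrophil genes higher, 0 of 1 mast cell gene called, 1 of 3 endothelial genes lower and 0 fat cell genes tested between the Ade and Con groups, and Cxcl13 of the lymph node stroma list was higher. Results of some genes of the pathway lists are not reported here.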

Additional observations from a re-analysis of the deposited data

Results flagged for a closer look

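In each group of 5 or 6 mice, the highest or lowest level of each member was compared with the nearest of the others relative to the whole range of the group (Dixon's criterion). Of 123 such values, 41 stood apart. Chance gives about 1 in 20, or about 6, only for normally distributed values, which CPM from few reads are not. A group with 1 read in 1 mouse and 0 in the others always stands apart, as for Ctla4 and Gzmk in the Con group. The members are also not independent, since 1 kidney gives all of its values. Of the 41, 31 were of mouse 311 of the Ade + IMC group. In that kidney, the CD3 chains Cd3d, Cd3e, Cd3g and Cd247 had 19.61, 40.82, 34.24 and 22.22 CPM, and the coreceptors Cd4 and Cd8b1 had 96.83 and 11.56 CPM. The signaling genes Lck, Zap70, Sh2d1a, Sh2d2a, Ubash3a and Ptpn22 had 66.33, 25.17, 5.669, 29.14, 10.88 and 64.74 CPM. Among the surface receptors, Cd2, Cd5 and Cd6 had 45.12, 30.95 and 39.68 CPM, Cd27, Cd28 and Icos had 17.35, 27.66 and 26.87 CPM, and Ctla4, Pdcd1, Lag3 and Cd96 had 13.04, 16.78, 45.35 and 6.122 CPM. The transcription factors Foxp3, Tbx21, Eomes and Tcf7 had 22.9, 13.95, 11.9 and 74.83 CPM there. The granule genes Gzmb, Gzmk, Prf1 and Nkg7 had 4.875, 12.36, 6.689 and 15.53 CPM, and the NK receptor Klrk1 had 9.637 CPM. For Gata3, mouse 311 was at 0.947 of the median of the other mice of its group.

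Mouse 308 of the Ade group stood apart above its group in 6 genes, Zap70 (17.21 CPM), Sh2d1a (3.676 CPM), Cd5 (20.22 CPM), Cd27 (13.37 CPM), Eomes (6.182 CPM) and Gzmb (1.838 CPM). In the Con group, mouse 403 was above the other mice in Ctla4 (0.1307 CPM, from 1 read) and Pdcd1 (0.9146 CPM), mouse 302 in Themis (1.429 CPM) and mouse 202 in Gzmk (0.1444 CPM, from 1 read).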

How the results depend on the processing

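The number of members called higher than in the Con group ranged from 30 to 38 for the Ade mice and from 29 to 40 for the Ade + IMC mice over the alternatives, with 0 called lower, while the share of all genes called higher ranged from 27.1 to 38.4% and from 25.7 to 35.5%, and 0 members were called for IMC within adenine feeding in any fit at an adjusted p below 0.1. The largest count in each case came from a fit that tested all 41 genes (DESeq2). The smallest came from fits without 1 mouse, which tested fewer members, with 30 of 31 and 29 of 30 called. The member tested and not called in them was Gata3. With the mouse digit as a replicate block, 32 of 33 genes were called for the Ade mice (34.9% of all genes were called higher), 33 of 34 for the Ade + IMC mice (30.7%) and 0 between the adenine-fed groups. No animal, litter or day links mice of 1 digit in the labels, so the block stands for a number of unknown meaning. Upper-quartile scaling raised the median log2 fold change of all genes to 0.08 for the Ade mice and 0.06 for the Ade + IMC mice and left the members' counts at 32 and 34, while the share of all genes called higher rose to 38.4% and 35.5%.

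Gata3 lost its call between the Ade + IMC and Con groups with no filter (0.2221, adjusted p = 0.128), with the replicate block (0.2116, adjusted p = 0.139) and without any 1 of mice 201, 202, 301, 302, 403, 211 and 410, all edgeR, and between the Ade and Con groups its log2 fold change ran from -0.0030 to 0.0873 when 1 mouse was left out. The signs of several IMC differences within adenine feeding, none of them called, also turned. Cd3e, at 0.02 with all mice, was at -0.1170 with the replicate block, -0.0206 with the block in edgeR, -0.3393 with the block and without mouse 311, and -0.5363 by DESeq2 without mouse 311, and ran from -0.3578 to 0.2677 when 1 mouse was left out. Cd4, at -0.06, was at 0.0356 by edgeR and 0.0463 by DESeq2, and ran from -0.3647 to 0.1176. Foxp3, at 0.29, was at -0.0261 with the block and without mouse 311 and at -0.0036 by DESeq2 without mouse 311, and ran from -0.0353 to 0.5035. By DESeq2 without mouse 311, Cd8a was at -0.0840, Sh2d1a at -0.1900, Sh2d2a at -0.0724 and Prf1 at -0.0569. The fits with mouse 311 left out by DESeq2 or together with the block, the edgeR fit with the block, the ratios of reads, the values of pathway genes without 1 mouse and the settings of the Cd8a share were chosen after seeing the data. The difference in the Cd8a share ran from -25.25 to -20.29 percentage points when 1 mouse was left out. The cause of these turns was not tested. Depth limits the control values most, where a few reads set the fold changes of Ctla4, Gzmk, Sh2d1a and Trat1. The calls of Gzmb, Ncr1, Ifng and Prf1 against the Con group depended on the test, since some or all of them were called by DESeq2 and edgeR with no filter and fewer by the exact test over CPM.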
